A study of Mus musculus with 6 samples.

Results

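A set of 9 protein-coding genes was followed across 6 mouse pluripotent cell libraries: Ldhb, Trh, Cd109, Inpp5d, Tnnt1, Emp1, Scd1, Spink3 and Aqp3. They are 9 of the 22558 gene entries in the deposited tables, and were chosen by their 4N- over 4N+ FPKM ratio, which has the same direction in both iPSC pairs. The values that chose them are therefore described below and not tested. Of the 9 genes, 7 were lower in both 4N- lines and 2, Spink3 and Aqp3, were higher. None is on a list of 42 imprinted genes drawn up for comparison.

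The mRNA libraries came from induced pluripotent stem cells (iPSC) and embryonic stem cells (ESC), with 1 library per condition. A 4N- and a 4N+ iPSC line came from peritoneal fibroblasts (PF), and a 4N- and a 4N+ line from tail tip fibroblasts (TTF), all of a mixed 129Sv/C57 background. The ESC were an H2A.X Cre knockout (KO) and its Flox/Flox counterpart of 129Sv background. All cultures were at passage 25, grew on feeder cells with LIF and were moved to gelatin before RNA extraction. The labels do not spell out 4N, and from outside knowledge it is read as the outcome of tetraploid complementation, the injection of cells into a tetraploid blastocyst to test whether they can build a whole embryo. Each condition is 1 line in 1 library, so neither line-to-line nor culture-to-culture spread can be measured, and the labels give no H2A.X genotype for the iPSC.

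The 9 genes belong to no single pathway. Ldhb encodes the H subunit of lactate dehydrogenase, which interconverts lactate and pyruvate, and Scd1 the desaturase that makes monounsaturated fatty acids. Trh encodes the precursor of thyrotropin-releasing hormone, and Spink3, named Spink1 in current RefSeq, a secreted Kazal-type trypsin inhibitor. Cd109 is a GPI-anchored surface protein that binds TGF-beta and dampens its receptor signalling, Emp1 a tetraspan membrane protein, and Aqp3 a channel for water and glycerol. Inpp5d encodes the lipid phosphatase SHIP1, which removes the 5-phosphate from phosphatidylinositol trisphosphate, and Tnnt1 the troponin T of slow skeletal muscle.

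RefSeq promoter entries (build GRCm38.p6) matched 6 of the 9 genes. The 250 bases before the start are shown for Ldhb and Trh, which the authors' tables called in both pairs, for Tnnt1, which differed strongly in the PF pair, and for Aqp3, which differed the other way. The windows are chr6:142507958-142508207, chr6:92244651-92244900, chr7:4515976-4516225 and chr4:41098184-41098433. All except Aqp3 are of genes lower in the 4N- lines, all 4 lie on the minus strand and are written 5′ to 3′, and capitals mark matches on either strand to the letters of the TATA box, the CCAAT box, the GC box, the E-box or the CRE, spelled out after the sequences.
Ldhb: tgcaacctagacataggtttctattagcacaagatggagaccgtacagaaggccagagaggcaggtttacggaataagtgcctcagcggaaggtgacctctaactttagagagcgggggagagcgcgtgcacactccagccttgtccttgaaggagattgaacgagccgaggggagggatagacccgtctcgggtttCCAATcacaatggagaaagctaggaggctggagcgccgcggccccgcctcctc
Trh: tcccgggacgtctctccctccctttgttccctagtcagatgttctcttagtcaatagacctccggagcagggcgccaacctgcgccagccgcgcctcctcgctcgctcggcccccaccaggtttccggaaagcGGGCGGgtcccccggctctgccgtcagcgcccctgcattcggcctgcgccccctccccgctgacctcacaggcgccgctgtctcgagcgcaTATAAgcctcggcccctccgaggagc
Tnnt1: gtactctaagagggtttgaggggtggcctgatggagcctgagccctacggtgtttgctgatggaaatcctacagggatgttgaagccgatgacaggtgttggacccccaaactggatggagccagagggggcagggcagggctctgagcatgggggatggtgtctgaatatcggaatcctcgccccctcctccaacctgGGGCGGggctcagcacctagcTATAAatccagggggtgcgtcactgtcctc
Aqp3: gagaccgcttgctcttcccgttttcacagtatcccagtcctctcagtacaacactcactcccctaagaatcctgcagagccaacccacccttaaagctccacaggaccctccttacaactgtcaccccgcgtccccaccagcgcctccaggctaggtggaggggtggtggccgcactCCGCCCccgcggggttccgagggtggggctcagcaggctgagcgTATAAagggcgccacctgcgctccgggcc

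The TATAA letters began 26 bases before the start in Trh, 30 in Tnnt1 and 29 in Aqp3, and also 26 bases before it in Inpp5d. Ldhb has no TATAA and carries CCAAT beginning 53 bases before its start. Emp1 has 2 listed starts, and neither window holds any of the motifs. The GC box was searched as GGGCGG, and it stands in Trh, Tnnt1 and Aqp3. The E-box was searched as CACGTG and the cyclic AMP response element (CRE) as TGACGTCA, and neither stands in any window of the 6 genes. On either strand, 22.8% of 32841 windows of that length hold the TATA letters, 33.9% the CCAAT letters, 32.7% the GC box, 6.02% the E-box and 1.55% the CRE. Windows differ in CpG content: Trh has 25 CpG, Ldhb 14 and Aqp3 14, against 6 in Tnnt1, 5 in Inpp5d and 3 in each Emp1 window, with a median of 6 over all windows. The search used letters alone, so a match is not evidence of binding. None of the motifs stands in all 6 genes searched.

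The genes lie on 7 autosomes. On mm9, Ldhb occupies chr6:142438769-142456463, Trh chr6:92192056-92194642, Emp1 chr6:135312949-135333191, Cd109 chr9:78463353-78564067, Inpp5d chr1:89516887-89617083, Tnnt1 chr7:4456265-4467577, Scd1 chr19:44468940-44482199, Spink3 chr18:43887723-43896891 and Aqp3 chr4:41039757-41045216. No other entry of the tables overlaps any of them. Ldhb has a processed pseudogene, Gm5514, that matches 1002 bases of its transcript at 98.0% identity, so reads could be split between them and the Ldhb values are uncertain to that extent. No other of the 9 had a near-identical partner among the GENCODE M21 transcripts searched.

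All 9 genes reached 1 FPKM (fragments per kilobase of transcript, scaled to library depth) in each of the 6 libraries, so the filter on low values removed none. On a 2000 bp transcript 1 FPKM stood for about 61.3 to 96.0 fragments, judged from receptor genes without introns, and 11031 to 11852 genes reached it in a library. The 9 genes rested on about 68 to 19601 fragments per library. H2afx, the gene of H2A.X, stood at 6.18 FPKM in the KO and 34.9 FPKM in Flox/Flox cells. Differences are given on the log2(FPKM + 1) scale, which understates those of low genes, and intervals on plain FPKM ratios are conditional exact binomial intervals at the 95% level that cover counting error only. Whether the 3 tables were scaled together is not stated, and levels set across them carry that limit. In bulk RNA, fewer cells that express a gene and less RNA per cell cannot be told apart.

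**Figure D1:**
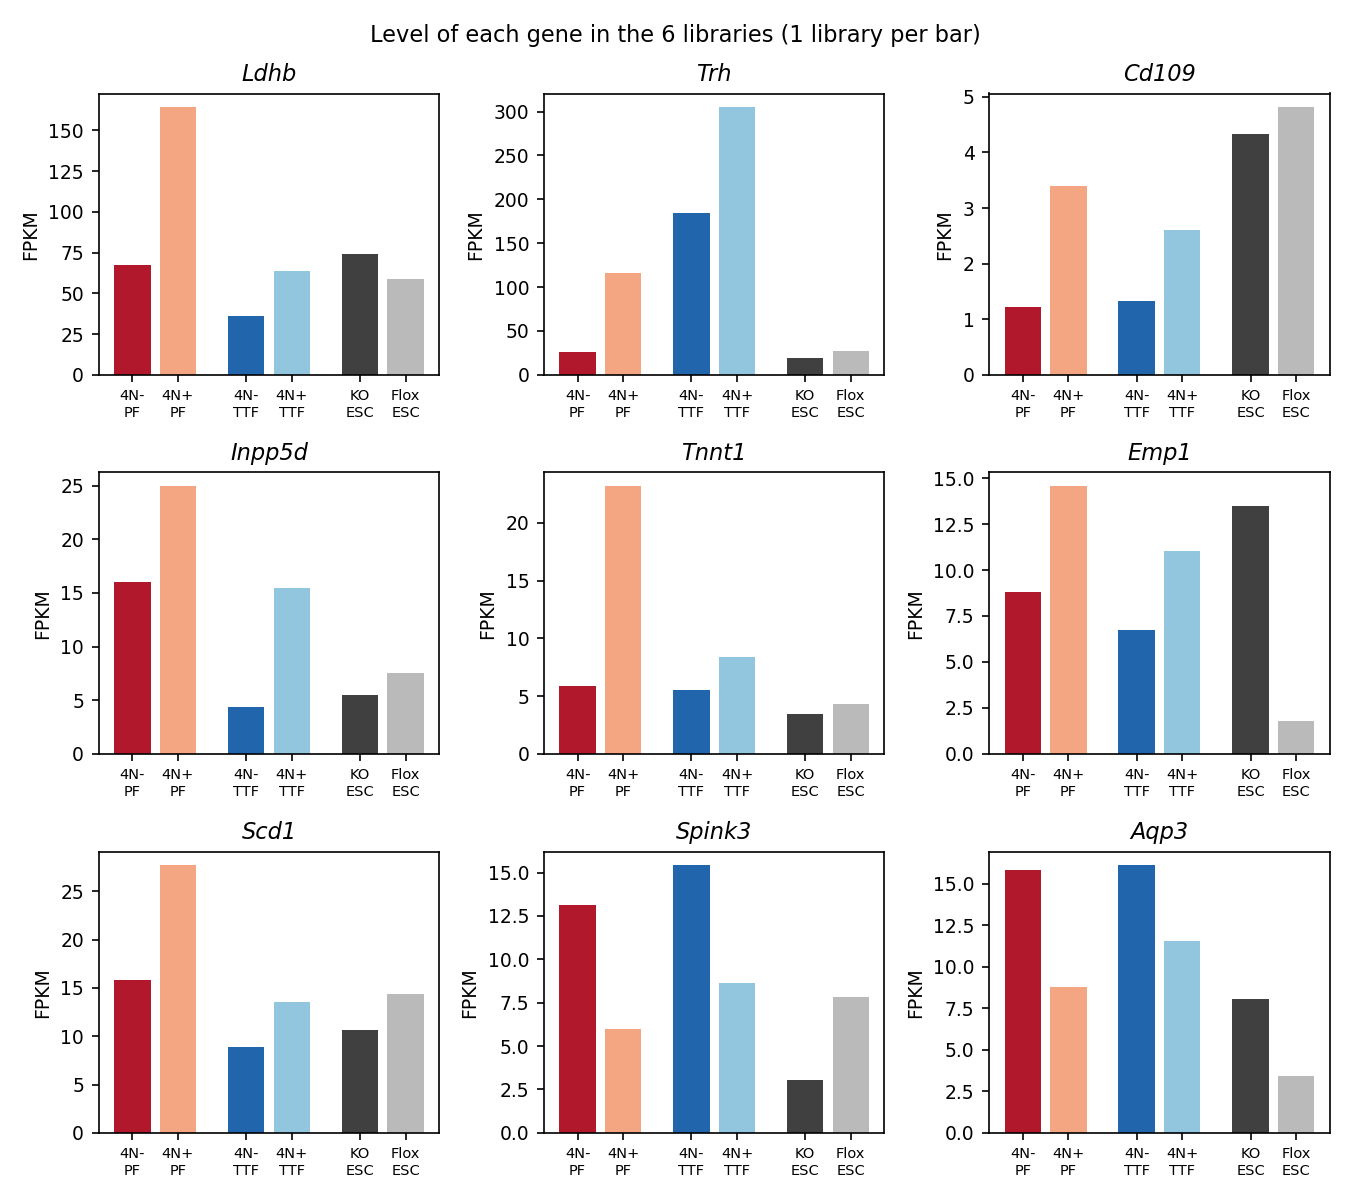
FPKM (y axes, each from 0) of the 9 genes in the 6 libraries, 1 bar per library, with the 4N- or KO library left of its partner. The first 7 genes are lower and the last 2 higher in the 4N- bar of both iPSC pairs; the ESC bars follow no common order.

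Both metabolic enzyme genes were lower in the 4N- lines. Ldhb stood at 67.3 FPKM in the 4N- PF line and 164 FPKM in the 4N+ PF line, and at 35.9 FPKM in the 4N- TTF line and 63.5 FPKM in the 4N+ TTF line. The 4N- value was thus 0.409 of the 4N+ value in the PF pair (interval 0.392 to 0.427) and 0.565 in the TTF pair (0.537 to 0.596). In ESC Ldhb was higher in the KO, at 74.0 FPKM against 58.8 FPKM in Flox/Flox. The 4N+ PF line stood above the other 5 libraries, which lay between 35.9 and 74.0 FPKM.

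No other measured gene of lactate and pyruvate metabolism was as far below its 4N+ partner as Ldhb in either iPSC pair. Ldha, the gene of the M subunit, stood at 534 FPKM in the 4N- PF line and 670 FPKM in the 4N+ PF line, and at 739 and 755 FPKM in the 4N- and 4N+ TTF lines. Per length, Ldha was thus more abundant than Ldhb in every library. Of 7 measured list genes other than Ldhb, 5 were lower in the 4N- PF line and 6 in the 4N- TTF line, with medians of -0.32 and -0.11 beside -0.13 and 0.00 over all measured genes, and none differed 2-fold. Pdk1, which inhibits pyruvate dehydrogenase, stood at 43.3 FPKM in the 4N- PF line and 75.8 FPKM in the 4N+ PF line. Pdha1, a subunit gene of pyruvate dehydrogenase, had the other direction in the PF pair, at 151 FPKM in the 4N- line against 92.9 FPKM in the 4N+ line, but 82.1 FPKM in the 4N- and 88.8 FPKM in the 4N+ TTF line. The lactate transporter Slc16a1 stood at 28.7 FPKM in the 4N- PF line and 40.2 FPKM in the 4N+ PF line. In the KO ESC 7 of 8 measured genes of this list were lower, whereas Ldhb was higher.

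Scd1 stood at 15.9 FPKM in the 4N- PF line and 27.8 FPKM in the 4N+ PF line (ratio 0.572, interval 0.545 to 0.600). It stood at 8.89 FPKM in the 4N- TTF line and 13.5 FPKM in the 4N+ TTF line (ratio 0.659, 0.623 to 0.697). In ESC it was at 10.6 FPKM in the KO and 14.3 FPKM in Flox/Flox, so the 4N- or KO line was the lower one in all 3 pairs. Its paralog Scd2 had the same order at a higher level: 54.1 and 90.2 FPKM in the 4N- and 4N+ PF lines, 38.1 and 52.8 FPKM in the 4N- and 4N+ TTF lines, and 42.9 and 59.5 FPKM in the KO and Flox/Flox ESC.

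The wider lipid list differed mainly in the PF pair. All 11 measured genes of fatty acid synthesis and desaturation other than Scd1 were lower in the 4N- PF line (median -0.59, beside -0.13 over all measured genes). Of the same 11 genes 8 were lower in the 4N- TTF line, with a median of only -0.08 beside 0.00. Fasn, the fatty acid synthase gene, stood at 20.1 FPKM in the 4N- PF line and 41.7 FPKM in the 4N+ PF line. Fasn had 18.1 FPKM in the 4N- TTF line and 16.9 FPKM in the 4N+ TTF line. Acly, which makes cytosolic acetyl-CoA, stood at 78.1 FPKM in 4N- PF and 118 FPKM in 4N+ PF cells, and at 69.2 FPKM in 4N- TTF and 72.1 FPKM in 4N+ TTF cells. In ESC 8 of the 11 were lower in the KO (median -0.35), 1 of them, Elovl6, at least 2-fold.

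Trh covered the widest range of the 9 genes. It stood at 25.5 FPKM in the 4N- PF line and 116 FPKM in the 4N+ PF line (ratio 0.219, interval 0.206 to 0.233), which was the smallest 4N- over 4N+ ratio of the 9 in that pair. Trh had 185 FPKM in the 4N- TTF line and 305 FPKM in the 4N+ TTF line, a ratio of 0.605 (0.592 to 0.619). In ESC it was at 19.03 FPKM in the KO and 27.2 FPKM in Flox/Flox. Both TTF lines were thus above both PF lines, and the 4N- PF line lay near the ESC libraries.

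The hormone's receptor genes were near silent, while some genes that process its precursor were expressed. The receptor genes Trhr and Trhr2, the degrading enzyme gene Trhde and Tshb, which encodes a thyrotropin subunit, stayed below 0.1 FPKM in all 6 libraries. Pcsk1 and Pcsk2, prohormone convertases that cut the precursor in neurons, stayed below 1 FPKM. Of 3 measured genes of the list, Qpct, which forms the N-terminal pyroglutamate, stood at 3.06 FPKM in the 4N- PF line and 0.943 FPKM in the 4N+ PF line but was level in the TTF pair, at 2.22 FPKM in the 4N- and 2.19 FPKM in the 4N+ line. Cpe, a carboxypeptidase gene, stood at 13.4 and 12.8 FPKM in the 4N- and 4N+ PF lines, and at 2.83 and 3.83 FPKM in the 4N- and 4N+ TTF lines. Pam, also measured, stood at 2.73 and 2.83 FPKM in the 4N- and 4N+ PF lines, and at 5.58 FPKM in the KO against 3.78 FPKM in Flox/Flox. All 3 were higher in the KO ESC, where Trh was lower.

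Spink3 was higher in both 4N- lines and lower in the KO ESC. It stood at 13.1 FPKM in the 4N- PF line and 5.99 FPKM in the 4N+ PF line (ratio 2.19, interval 1.80 to 2.67), and at 15.4 FPKM in the 4N- TTF line and 8.61 FPKM in the 4N+ TTF line (1.79, 1.55 to 2.08). In ESC it stood at 3.05 FPKM in the KO and 7.82 FPKM in Flox/Flox (0.390, 0.292 to 0.513). The 2 4N- lines held the highest levels of the 6 libraries, and the other Kazal inhibitor genes listed were at most 1.71 FPKM. The trypsin genes Prss1, Prss2 and Prss3, whose products Spink3 inhibits in pancreas, were listed at 0 in all 6. The Kunitz-type inhibitor genes Spint1 and Spint2 differed little in the iPSC, for example 67.9 and 65.5 FPKM of Spint2 in the 4N- and 4N+ PF lines.

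The surface protein genes divided in direction. Cd109, the lowest of the 9 genes in the iPSC, stood at 1.22 FPKM in the 4N- PF line and 3.40 FPKM in the 4N+ PF line (ratio 0.358, interval 0.309 to 0.415). Cd109 had 1.32 FPKM in the 4N- TTF line against 2.61 FPKM in the 4N+ TTF line, a ratio of 0.505 (0.444 to 0.573). In ESC it was at 4.33 FPKM in the KO and 4.82 FPKM in Flox/Flox, higher than in any iPSC line. That ESC difference of -0.13 turned to 0.08 once the shift common to the table was taken out, so it has no settled direction.

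Most measured genes of TGF-beta signalling were lower in the 4N- lines, with medians near those of all genes. Of 11 measured in the PF pair besides Cd109, 8 were lower in the 4N- line (median -0.16, beside -0.13 over all measured genes), and in the TTF pair 8 of 10 were lower (median -0.11, beside 0.00). The type I receptor gene Tgfbr1 was level, with 6.78 and 7.07 FPKM in the 4N- and 4N+ PF lines, then 6.97 and 7.42 FPKM in the 4N- and 4N+ TTF lines. In ESC 7 of 12 measured genes of the list were higher in the KO and 5 lower (median 0.36, beside -0.03 over all measured genes).

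Emp1 had nearly the same ratio in both iPSC pairs and differed the other way in ESC. It stood at 8.78 FPKM in the 4N- PF line and 14.6 FPKM in the 4N+ PF line (ratio 0.602, interval 0.552 to 0.656), and at 6.75 FPKM in the 4N- TTF line and 11.0 FPKM in the 4N+ TTF line (0.613, 0.563 to 0.667). In ESC it reached 13.5 FPKM in the KO against 1.78 FPKM in Flox/Flox, a ratio of 7.56 (6.47 to 8.85). The Flox/Flox library was the lowest of the 6. Relatives of the family were also higher in the KO: Pmp22 stood at 20.9 FPKM in the KO against 1.07 FPKM in Flox/Flox, and Emp2 at 3.13 FPKM in the KO against 0.477 FPKM in Flox/Flox. In the iPSC, Emp3 was level, for example at 4.43 and 4.74 FPKM in the 4N- and 4N+ PF lines.

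Aqp3 was higher in the 4N- or KO line of all 3 pairs. It stood at 15.8 FPKM in the 4N- PF line and 8.76 FPKM in the 4N+ PF line (ratio 1.81, interval 1.62 to 2.01), and at 16.1 FPKM in the 4N- TTF line and 11.5 FPKM in the 4N+ TTF line (1.40, 1.29 to 1.52). In ESC it stood at 8.08 FPKM in the KO and 3.42 FPKM in Flox/Flox (2.36, 2.01 to 2.78). Among the other 10 aquaporin genes listed, Aqp11 was the most abundant, at 1.45 to 3.20 FPKM, and all others stayed at or below 1.27 FPKM.

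Inpp5d had the smallest 4N- over 4N+ ratio of the 9 in the TTF pair. It stood at 4.40 FPKM in the 4N- TTF line against 15.4 FPKM in the 4N+ TTF line (ratio 0.285, interval 0.266 to 0.306). In the PF pair it stood at 16.0 FPKM (4N-) and 25.0 FPKM (4N+), a ratio of 0.640 (0.610 to 0.672). In ESC it was at 5.52 FPKM in the KO and 7.54 FPKM in Flox/Flox. The 4N- TTF line was thus the lowest of the 6 libraries, and the other 3 iPSC lines were above both ESC.

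Other phosphoinositide phosphatase genes were close to level in both iPSC pairs. The 11 measured had medians of -0.06 in the PF pair and -0.05 in the TTF pair, and none differed 2-fold. The near relative Inppl1, which encodes SHIP2, stood at 17.1 and 17.5 FPKM in the 4N- and 4N+ PF lines and at 14.2 and 16.8 FPKM in the 4N- and 4N+ TTF lines. Inpp5d is also known as a blood cell gene. The 10 macrophage markers in the tables summed to 10.8 FPKM in the 4N- PF and 9.13 FPKM in the 4N+ PF line, and to 14.1 FPKM in the 4N- TTF and 19.5 FPKM in the 4N+ TTF line, with 2 measured in each pair. Most of each sum was Cd68, which stood at 8.35 FPKM in the 4N- PF line against 5.88 FPKM in the 4N+ PF line. In the TTF pair Cd68 had the direction of Inpp5d, at 9.98 FPKM in the 4N- line against 16.0 FPKM in the 4N+ line. Lyz2, Emr1, Ptprc and Tyrobp were at most 0.0900 FPKM in all 6 libraries, and the part of such cells in the Inpp5d result was not tested.

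Tnnt1 stood at 5.86 FPKM in the 4N- PF line and 23.2 FPKM in the 4N+ PF line (ratio 0.253, interval 0.216 to 0.294). It stood at 5.49 FPKM in the 4N- TTF line and 8.38 FPKM in the 4N+ TTF line (0.654, 0.560 to 0.768), and at 3.40 FPKM in the KO and 4.31 FPKM in Flox/Flox. The 4N+ PF line was the outlying one, since the other 5 libraries lay between 3.40 and 8.38 FPKM. The ESC interval, 0.614 to 1.01, included a ratio of 1. Its partners in the slow troponin complex were low in the iPSC, with Tnni1 at 0.223 to 0.470 FPKM and Tnnc1 at 0.451 to 1.41 FPKM. All 6 measured troponin and tropomyosin genes were lower in the 4N- PF line, but their median of -0.18 was near the -0.13 over all measured genes. In the 4N- TTF line 5 of 6 were higher (median 0.11, beside 0.00), and none differed 2-fold in either pair.

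**Figure D2:**
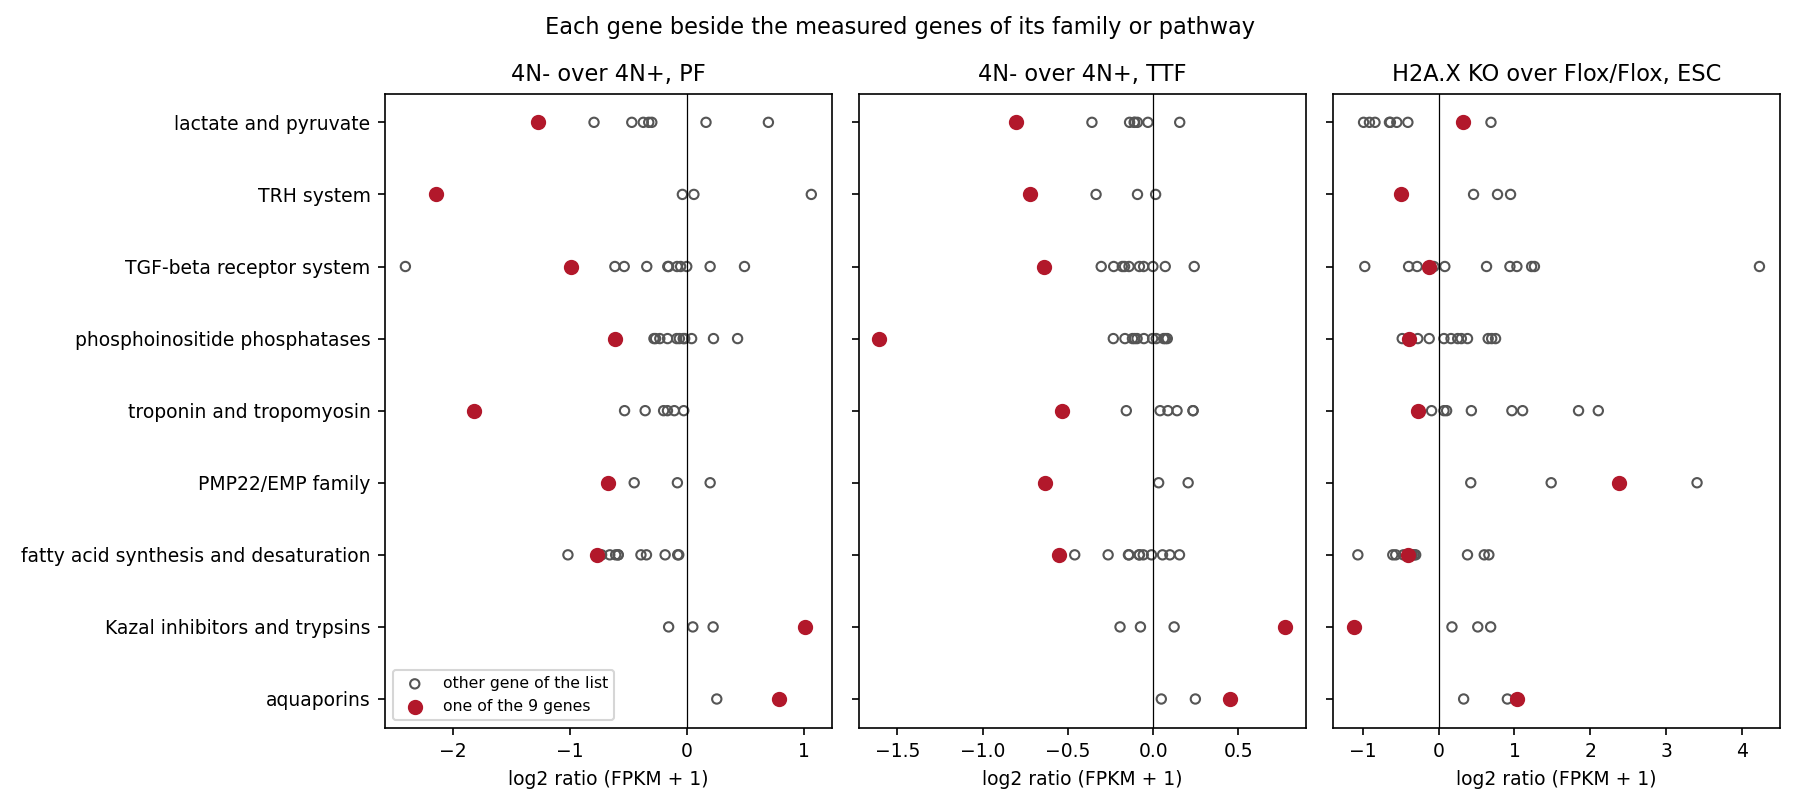
Log2(FPKM + 1) ratio (x axes) of each of the 9 genes (filled) and of the measured genes of its family or pathway list (open), for the PF pair, the TTF pair and the ESC pair. In the iPSC panels most family members sit near 0 while the filled point lies at or near the end of its row, except in the lipid and TGF-beta rows of the PF pair; the ESC panel has no such order.

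Set against all genes, the iPSC ratios of the 9 were read only as a description of how they were picked. At least 2-fold lower in the 4N- PF line were Ldhb, Trh and Tnnt1 (3 of 9, where 0.974% of 11606 measured genes were), and Spink3 was at least 2-fold higher (1 of 9, where 0.577% were). Cd109 was just short of this at -0.99. In the TTF pair Inpp5d alone was at least 2-fold lower (1 of 9, where 0.564% of 11354 were) and none was 2-fold higher, where 0.185% were. In 8 of the 9 genes the PF difference was the larger, and Inpp5d was the exception. Emp1 joined it after centring, at -0.51 in the PF pair and -0.64 in the TTF pair, and after subtracting the chromosome median, at -0.24 and -0.63.

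A difference of at least 1.5-fold in both pairs was rare. Of 10975 genes measured in both, 0.173% were that much lower and 0.182% that much higher in the 4N- lines, 39 genes in all, of which 19 were small RNA genes that mRNA libraries capture poorly. The 9 genes contribute 6 of the other 20, and Scd1, Tnnt1 and Aqp3 were below that size in the TTF pair. For Scd1 and Tnnt1 this holds only with the pseudocount of 1, since their plain FPKM ratios were 1.52-fold and 1.53-fold lower in the 4N- TTF line, and with a pseudocount of 0.1 both pass it, at -0.60 each. Scd1 also passes it after subtraction of its chromosome median, at -0.59. Inpp5d and Emp1, which are among the 6, fall short of 1.5-fold in the PF pair under 2 alternatives. They stood at -0.45 and -0.51 there after centring, and at -0.45 and -0.24 after subtraction of the chromosome median. Direction alone is common, since 33.5% of the genes were lower and 13.8% higher in both 4N- lines at any size. Ranked by the smaller of the absolute ratios, without small RNA genes, Ldhb came at 7, Spink3 at 9, Trh at 11, Cd109 at 17, Emp1 at 18, Inpp5d at 20, Scd1 at 23, Tnnt1 at 27 and Aqp3 at 46. The rule has no cut-off: of the 46 genes down to Aqp3 in that ranking, 9 are those described here, 6 are on the imprinted list and 31 are others. The nearest of these others was Cyct, whose smaller absolute ratio was 0.450 on the log2 scale, ahead of Aqp3 at 0.449. Gm8300, at 0.444, came next behind Aqp3 and is outside the 46.

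The authors' deposited tables hold calls of their own, each on a single pair of libraries. In the authors' deposited table of the PF pair Ldhb (q = 0.00225), Trh (q = 6.61e-10), Cd109 (q = 0.0492) and Tnnt1 (q = 0.00225) were called lower, where 0.444% of 13956 tested genes were, and none of the 9 was called higher, where 0.0931% were. In the authors' deposited table of the TTF pair Ldhb (q = 0.00405), Trh (q = 0.000238), Cd109 (q = 0.0289) and Inpp5d (q = 3.08e-10) were called lower, where 0.182% of 14289 were, and again none of the 9 was called higher, where 0.119% were. A call in the same direction in both of the authors' deposited iPSC tables was made for 6 genes (0.0442% of 13571): Ldhb, Trh, Cd109 and the imprinted Meg3, Rian and Mirg. Since these contrasts picked the 9 genes, the calls describe them and support nothing further.

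**Figure D3:**
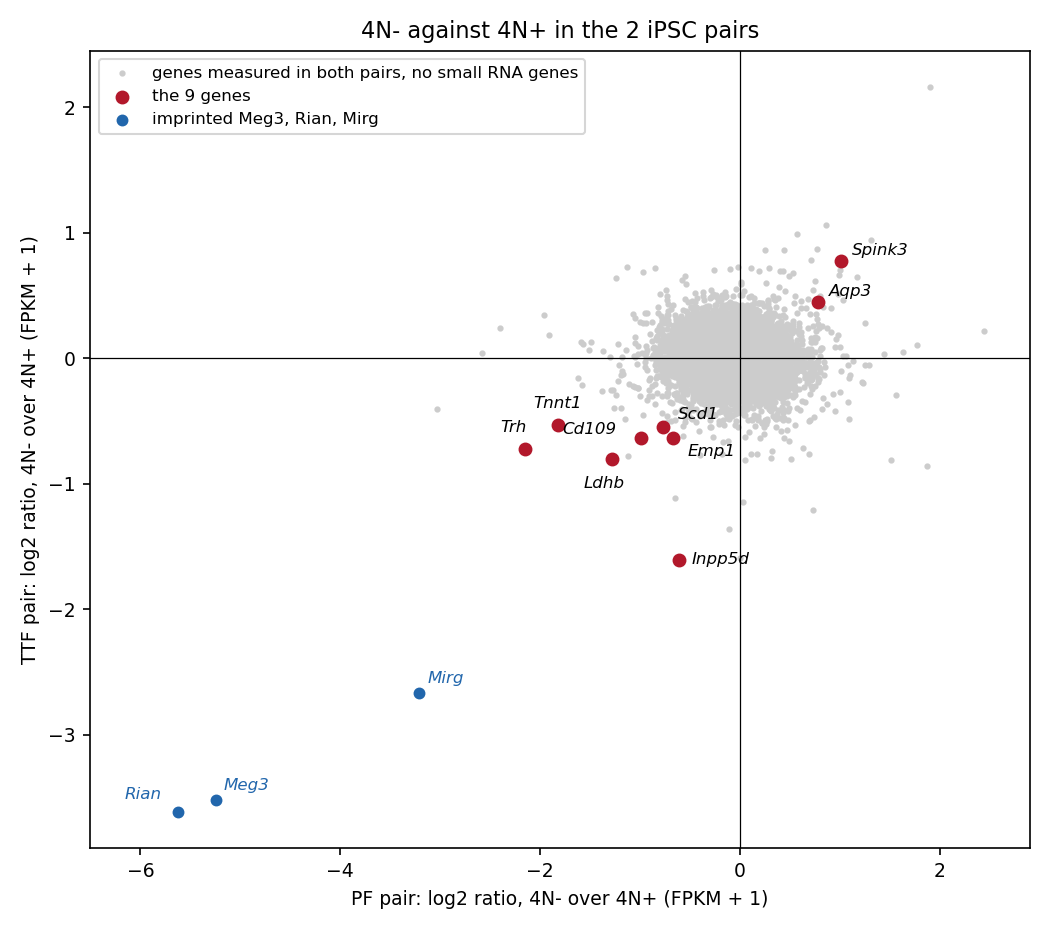
Log2(FPKM + 1) ratio of 4N- over 4N+ in the PF pair (x axis) against the TTF pair (y axis), 1 point per gene measured in both, without small RNA genes. The 7 genes lower in both pairs lie at the lower left edge of the cloud, Spink3 and Aqp3 at its upper right, and Meg3, Rian and Mirg far beyond them at the lower left.

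Position on the chromosome differed from the rest of the set for the chromosome 6 genes. Ldhb, Trh and Emp1 lie there, and in the PF pair the 321 genes of chromosome 6 at 5 FPKM or above in each library had a median of -0.43, against -0.17 over all autosomes. Of them 81.3% lay below the autosomal median. In the TTF pair the chromosome 6 median was -0.00 beside 0.01 over all autosomes. Chromosomes 11 at -0.44, 17 at 0.22 and, less so, 8 at -0.03 were also displaced in the PF pair, and none of them holds any of the 9 genes. The 6 other genes lie on chromosomes whose medians were within 0.07 of the autosomal one in that pair.

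Taking the chromosome median out left Trh at -1.71 and Ldhb at -0.84 in the PF pair, where they had been at -2.15 and -1.28. Emp1 was left at -0.24 there, where it had been at -0.67. For TTF the same step left Trh at -0.72, Ldhb at -0.80 and Emp1 at -0.63. Among genes within 1 Mb, 7 neighbours of Ldhb had a median of -0.50 in the PF pair and 0.01 in the TTF pair. The 13 neighbours of Trh in the PF pair had a median of -0.41, and the 12 in the TTF pair 0.01. Emp1 differed from these, with medians of -0.24 over 12 neighbours in the PF pair, closer to 0 than its chromosome, and -0.17 over 13 in the TTF pair. Neighbours of Tnnt1 (34 genes, median -0.10) and Inpp5d (12 genes, median -0.06) in the PF pair were near level. The part of a whole-chromosome difference in the Ldhb, Trh and Emp1 results was not tested further.

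**Figure D4:**
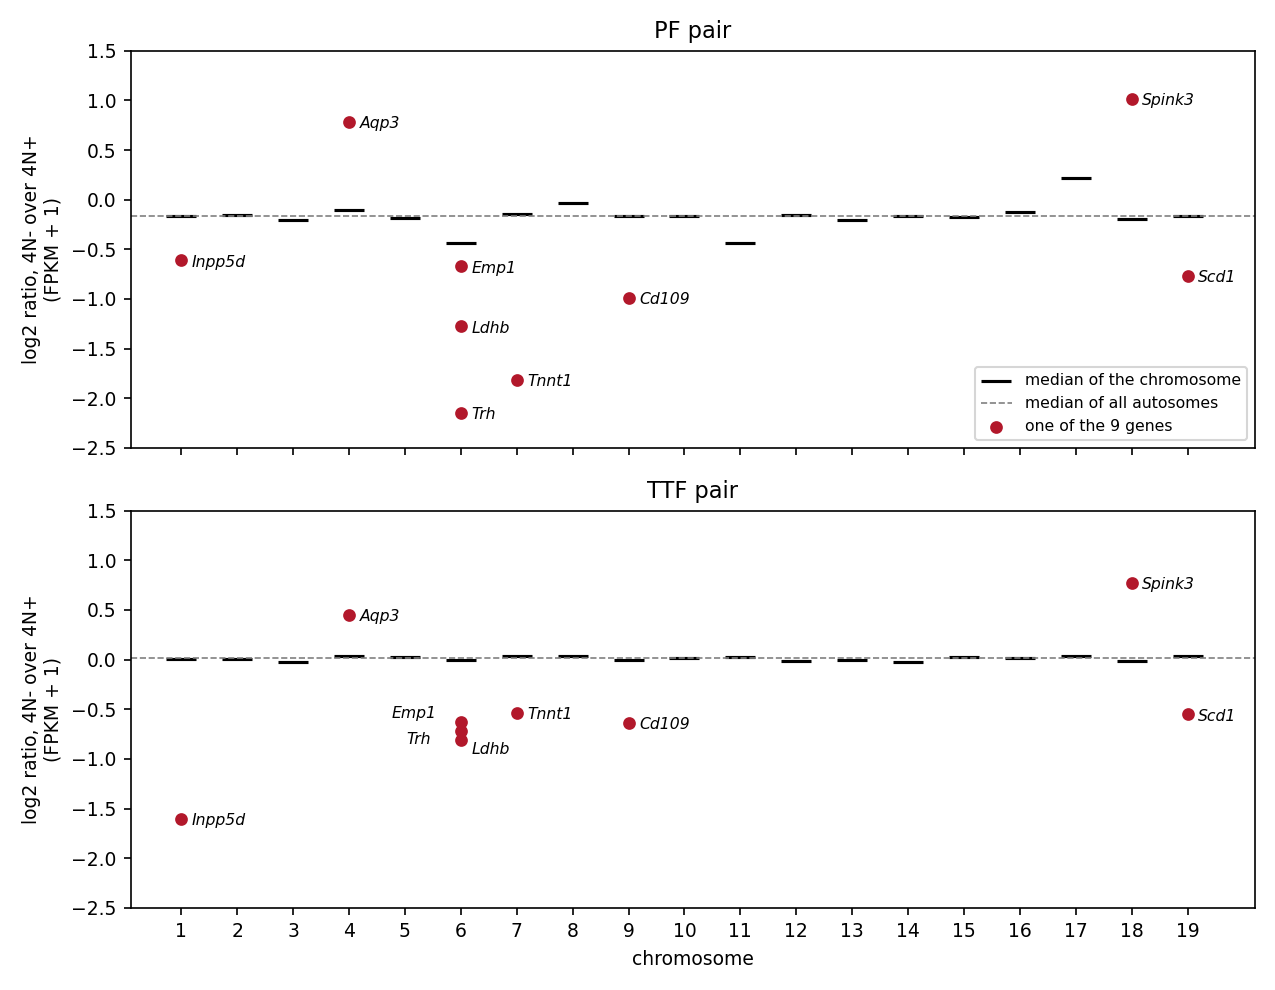
Log2(FPKM + 1) ratio of 4N- over 4N+ (y axes) by autosome (x axis) in the PF pair (upper panel) and the TTF pair (lower panel): black bars are medians of genes that reach 5 FPKM in each library, filled points the 9 genes. In the PF pair the chromosome 6 and 11 bars lie near -0.43 and -0.44 and chromosome 17 at 0.22, while in the TTF pair all bars lie close to the dashed autosomal median.

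The ESC comparison was not used to choose the genes. Aqp3 and Emp1 were at least 2-fold higher in the KO (2 of 9, where 7.49% of 12086 measured genes were) and Spink3 at least 2-fold lower (1 of 9, where 3.72% were). In the authors' deposited ESC table Emp1 (q = 0.0122) was the only one of the 9 called, where 1.38% of 14589 tested genes were called higher and 0.0548% lower. The rest had smaller ESC differences, between -0.49 for Trh and 0.33 for Ldhb. Of the 7 genes lower in the 4N- lines, 5 were also lower in the KO and 2, Ldhb and Emp1, were higher. Lower values in the KO were common among all genes, with a median of -0.03 over all measured ones. The share of genes lower in the KO at any size was not counted, so the 5 of 7 is no result about this set. Of the 5, Tnnt1 had an ESC interval of 0.614 to 1.01. The median over genes that reach 5 FPKM in each ESC library was itself -0.20, and after centring on it Cd109 changed sign and Spink3, at -0.92, was no longer 2-fold lower. Centring also turned the ESC counts of 905 higher and 449 lower genes into 1412 and 202. In the PF pair the shift was -0.17 and the counts of 67 higher and 113 lower became 91 and 87. The TTF shift was 0.01. With 1 library on each side none of these differences has a replicate check.

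Markers of other cells moved with some of these comparisons. The summed level of 15 fibroblast markers was 8.41 FPKM in the 4N- PF line and 70.2 FPKM in the 4N+ PF line, where S100a4 alone gave 40.1 FPKM, and all 9 measured ones were lower in the 4N- line, 6 of them at least 2-fold. In the 4N- PF line 4 of the 15 were listed at 0, against 1 in the 4N+ PF line. Of the defining fibroblast genes, Col1a2 stood at 0.0228 FPKM in the 4N- PF line and 5.41 FPKM in the 4N+ PF line, and Lum was listed at 0 in all 6 libraries. In the TTF pair the sum was 11.6 FPKM (4N-) and 10.0 FPKM (4N+), and the 2 measured markers differed in direction. In ESC 15 trophoblast markers summed to 1343 FPKM in the KO and 60.5 FPKM in Flox/Flox, 10 of 12 measured ones being at least 2-fold higher, while the spongiotrophoblast marker Tpbpa stood at only 0.241 FPKM in the KO and 0.0172 FPKM in Flox/Flox. The extraembryonic endoderm markers summed to 430 FPKM in the KO and 133 FPKM in Flox/Flox, with 7 of 8 measured ones higher in the KO. Sparc alone gave 247 FPKM of the KO sum, and most of the rest came from the laminin and collagen genes Lamc1, Lamb1, Col4a1 and Col4a2. Gata4 stood at 2.29 FPKM in the KO and 0.598 FPKM in Flox/Flox. Sox17 stood at only 0.105 FPKM, Foxa2 at 0.0399 FPKM and Sox7 at 0.217 FPKM in the KO, and Ttr was listed at 0 there. Fibroblast markers summed to 19.7 FPKM in the KO and 3.79 FPKM in Flox/Flox, and all 5 measured ones were higher in the KO, 4 of them at least 2-fold. Macrophage markers summed to 58.7 FPKM in the KO and 13.0 FPKM in Flox/Flox, with 3 of 10 measured and all 3 at least 2-fold higher. Cd68 gave 41.6 FPKM of the KO sum, and Csf1r stood at 11.3 FPKM in the KO and 0.131 FPKM in Flox/Flox. The other macrophage genes did not go with them to such levels. In the KO, Ptprc stood at 0.0406 FPKM, Lyz2 at 0.0900 FPKM and Emr1 at 0.00842 FPKM, and Tyrobp and Fcgr1 were listed at 0. The part of any of these cells in the ESC differences of the 9 genes, and of fibroblasts in the PF differences, was not tested.

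The cells carried the markers of pluripotent cells throughout. All 15 listed genes were measured in each pair, none 2-fold different in the iPSC, with Pou5f1 at 279 and 266 FPKM in the 4N- and 4N+ PF lines, then 454 and 424 FPKM in the 4N- and 4N+ TTF lines. In ESC all 15 had lower values in the KO, 5 of them at least 2-fold. The TTF lines differed in Y-linked genes, with 25.3 FPKM of Eif2s3y in 4N- TTF cells against 2.46 FPKM in 4N+ TTF cells, and its part in the TTF results was not tested.

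Across the 6 libraries the 9 genes did not share a single pattern. Ldhb and Scd1 had a Pearson r of 0.90, Inpp5d and Scd1 of 0.89 and Tnnt1 and Scd1 of 0.83, whereas Trh and Ldhb had -0.08 and Cd109 and Aqp3 -0.90. Among 8717 other genes that reached 5 FPKM, the one most like Trh was C330024D21Rik (r = 0.99), which stood at 0.625 and 2.38 FPKM in the 4N- and 4N+ PF lines, then 4.45 and 5.38 FPKM in the 4N- and 4N+ TTF lines. The one most like Tnnt1 was Rap1a (r = 0.98), most like Ldhb 2310030N02Rik (r = 0.98), most like Scd1 Rab3gap2 (r = 0.98) and most like Emp1 Acbd5 (r = 0.99). Cd109 was most like Dlg1 (r = 0.98), Spink3 most like Psmb1 (r = 0.98), Aqp3 most like Ndufa7 (r = 0.99) and Inpp5d most like Ildr1 (r = 0.96). Pearson r takes no account of the size of a change, and several of these partners varied far less than the gene they resemble. 2310030N02Rik lay between 10.6 and 14.5 FPKM, where Ldhb lay between 35.9 and 164 FPKM. Dlg1 lay between 21.8 and 26.9 FPKM, where Cd109 lay between 1.22 and 4.82 FPKM. These correlations rest on 6 libraries in 3 tables that carry their strain and cell type differences, and between 1 and 31 genes reached an r of 0.95 with each gene, so they describe these libraries only.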

How the data were processed

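Messenger RNA was measured in 6 libraries, compared by the authors in 3 tables of 2 libraries each. Reads passed through CASAVA and TopHat2 on mm9, per the submitters' processing notes. No source used here names the quantifier, the annotation, the use of strand or any version. The deposited values were taken as FPKM made by the authors, since they are neither negative nor whole and the tables have the layout of a gene-level comparison. The p-values and q-values in the text are the authors' own, copied from the deposited tables. The deposited log2 fold change and test statistic (other units of the authors) enter no result: they run control over tested and hold placeholders for infinity.

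Columns were assigned to samples by their headers. The ESC column headed as control was taken as Flox/Flox, the only other sample naming that table. Ratios are log2(FPKM + 1), tested over control line, over genes at 1 FPKM or more in at least 1 library of a pair. With 1 library per condition no test was run. Differences of at least 2-fold were counted, and at least 1.5-fold where both iPSC pairs were read together. Fragments were estimated from 1171 olfactory and vomeronasal receptor genes, whose lowest FPKM times length gave the worth of 1 fragment, and from the lengths of GENCODE M21 transcripts (729 to 5860 bp for the 9 genes). The length the authors used is not known, so fragment numbers and intervals are approximate. PCR duplicates cannot be told apart, so intervals cover counting error only. The deposited start was counted from 0: the span equalled end minus start in 6705 of 19953 genes matched to RefSeq by symbol and end minus start plus 1 in 446. Coordinates were therefore raised by 1 at the start. Near-identical transcripts at 95% identity or more over at least 200 bases were sought with blastn. Calculations used Python 3.11.15, pandas 2.3.3 and scipy 1.17.1, and were tested on simulated data.

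The 9 genes, the lists, the motifs and the comparisons were chosen with earlier results of these data known. Named genes are the 9, genes of their family lists at 5 FPKM or more in at least 1 library or at least 2-fold in a pair, and for each of the 9 the gene with the highest Pearson r. Low or silent family genes named for contrast, the marker genes and the chromosome 6 and neighbour results were chosen after their values were seen. Alternatives were a pseudocount of 0.1, no filter, a minimum of 5 FPKM, centring on the median of those genes that reach 5 FPKM in each library and, added after seeing the data, subtraction of the chromosome median. Some genes of the family lists are counted in the lists but not reported here by name.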

Additional observations from a re-analysis of the deposited data

How the results depend on the processing

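The direction of the 9 genes in both iPSC pairs was the same after centring and after subtracting the chromosome median. A pseudocount of 0.1 could not reverse a direction, since the same value added to both levels keeps their order. That direction also picked the genes, so its persistence describes them and supports nothing further. Of the ESC directions Cd109 alone reversed, to 0.0758 after centring and 0.0879 after subtracting the chromosome median. The count of the 9 genes at least 2-fold lower in the KO became 0 after centring. A pseudocount of 0.1 gave 120 higher and 192 lower genes in the PF pair, 45 higher in the TTF pair and 1586 higher in the ESC pair, and it brought Cd109 past 2-fold in the PF pair, for 4 of the 9 lower. Centring gave 1412 higher and 202 lower genes in the ESC pair, and a minimum of 5 FPKM gave 571 higher. Where fewer or more genes were counted by the construction of a filter or pseudocount, that is the cause; for other changes the cause was not tested. No analysis of paired replicates was possible within a pair, because each condition has 1 library. A fit over the 4 iPSC lines with the fibroblast source as a block would leave 1 residual degree of freedom and was not run, since both pairs chose the genes. No library could be left out of a ratio, because each condition has 1. Variation between lines and cultures could not be measured. The fewest fragments behind a value of the 9 genes were about 68, for Spink3 in the KO.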
